A study of Mus musculus with 5 samples.

Results

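The 42 genes described here act in the cell division cycle, and their RNA was measured in 5 livers of mice exposed to chronic and binge ethanol. The genes were taken as a fixed list of symbols and divided by the phase in which they act, with 19 genes of the passage from G1 into S phase (G1/S), 21 genes of G2 and mitosis (G2/M) and 2 cyclin-dependent kinase inhibitors. Of the 42, 40 had a probe whose RefSeq identifier led to the gene, among 17016 genes named on the array in this way. These 40 genes had 55 of the 41174 non-control probes. Ccnd1, which encodes cyclin D1, and Mki67, which encodes the proliferation antigen Ki-67, had no probe matched in this way and are not analysed here.

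The 5 liver samples, called livers 1 to 5, came from male C57BL/6N mice that received an ethanol diet for 8 weeks and then 3 binges of ethanol at 5 g per kg. Liver cDNA carried Cy5 on all 5 arrays. The Cy3 channel of each array carried a purchased RNA, Ambion Mouse Assorted Total RNA, whose strain the labels give as C57BL/6N and whose tissue they give as liver. No array had the dyes exchanged and no group on a control diet was analysed here, so each ratio sets an ethanol-exposed liver against the reference RNA and not against an unexposed liver. Nothing in the labels ties the 5 samples to separate mice, and the p-values below therefore rest on a spread between samples that may be technical.

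Cells enter the cycle when cyclin D and cyclin E kinases release E2F transcription factors from the retinoblastoma proteins. E2F then raises the genes of replication licensing and DNA synthesis, and later the MuvB complex with B-Myb and FoxM1 raises the genes of mitosis, which the DREAM complex holds down in resting cells. Adult hepatocytes rest outside the cycle for most of their life and re-enter it after partial hepatectomy or injury. In bulk liver RNA, fewer cycling cells and less of an RNA per cell cannot be told apart.

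Each array held 45018 spots, and no spot was saturated. Background-subtracted signal over all probes had a median of 78.4 to 177 in liver and 75.5 to 151 in the reference. The share of spots well above background was 77.3% to 81.2% in liver and 69.9% to 78.4% in the reference. Hepatocyte marker genes were bright in both RNAs, with a summed signal of 341780 to 472867 in liver and 210198 to 346512 in the reference, so liver markers were present in both channels. The number of arrays limits the precision.

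Most cell cycle genes gave a measurable but modest signal. Of the 40 genes with a probe, 30 were well above background on all 5 arrays in liver and 27 in the reference, and the same 27 passed in both channels. That is 67.5% of the 40, beside 69.7% of all named genes. By phase, 13 of 18 G1/S genes (72.2%), 12 of 20 G2/M genes (60%) and both inhibitors passed in both channels on all arrays. Counted array by array, 33 to 35 of the 40 genes cleared background in liver, against 29 to 35 in the reference.

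**Figure D1:**
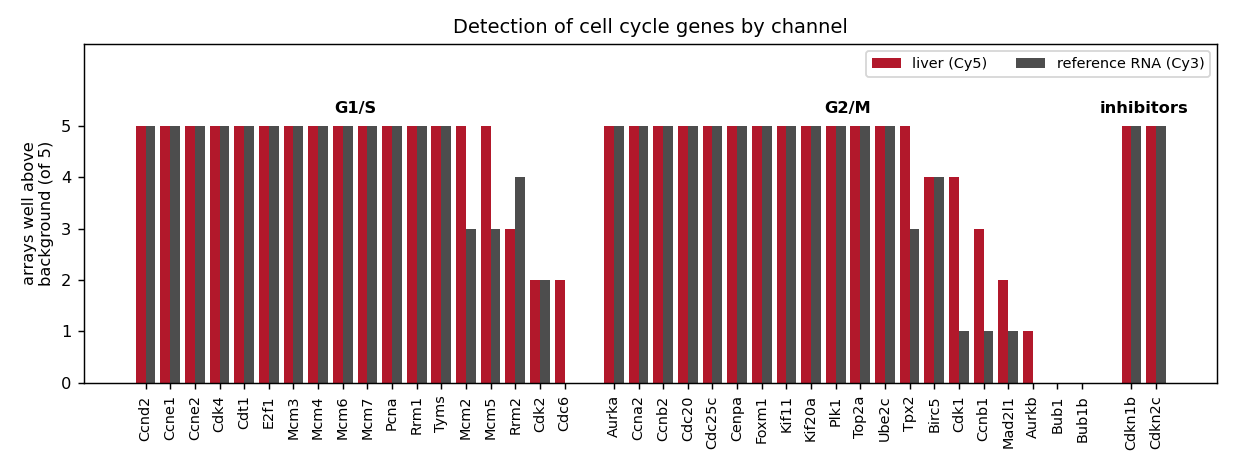
Number of the 5 arrays (vertical axis) on which the probe of each cell cycle gene (horizontal axis, grouped by phase) was well above background, with liver in red to the left of the reference RNA in grey. Both inhibitors reached 5 of 5 in both channels, while Bub1 and Bub1b were at 0 in both.

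The dimmest genes belonged to both phases, and 5 of them were too dim to test. Bub1 and Bub1b, kinase and kinase-like sensors of unattached chromosomes, were well above background on no array in either channel. Mad2l1, the checkpoint protein that holds back the anaphase-promoting complex, passed on 2 arrays in liver and on 1 in the reference. Aurkb, the kinase of the chromosomal passenger complex, passed on 1 array in liver and on 0 in the reference, and the licensing gene Cdc6 passed on 2 arrays in liver and on 0 in the reference. To be tested, a probe had to clear background in 1 channel or the other on 3 or more arrays, so these 5 genes were not tested and no ratio is given for them. A gene with several tested probes was represented by its brightest. Cdk2, the kinase partner of cyclin E, entered the test through different arrays, with 2 arrays well above background in liver and 2 in the reference.

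Of the 35 genes tested, 0 differed between liver and reference by a called amount, that is, at least 2-fold with an adjusted p below 0.05 (limma, Benjamini-Hochberg over all 14910 genes tested). Over all genes tested, 1.28% were called, 129 higher (0.865%) and 62 lower (0.416%) in liver. With no minimum ratio, 5 of the 35 (14.3%) were above the reference and 3 (8.57%) were below it at an adjusted p below 0.05, while 27 had no call. The same count over all genes was 14.2% above and 12.8% below, so the share of cell cycle genes above the reference was close to that of genes in general, and the share below was not larger. The 5 genes above were Cenpa, Birc5, Ccne1, Ccna2 and Aurka, and the 3 below were Ube2c, Rrm2 and Top2a. The median log2 ratio was 0.04 over the 35 genes and -0.02 over all genes tested.

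**Figure D2:**
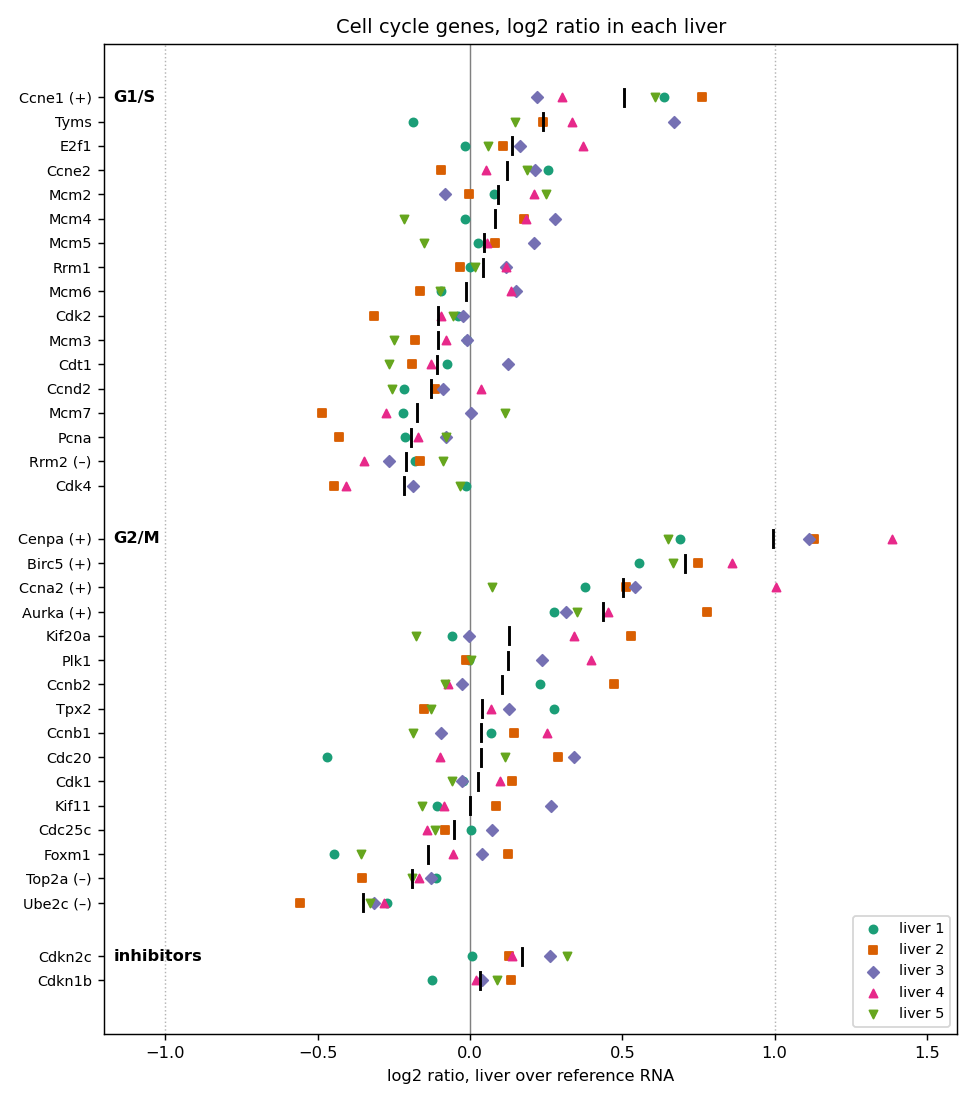
Log2 ratio of liver over reference RNA (horizontal axis) for each of the 35 tested cell cycle genes (rows, grouped by phase and ordered by mean), with 1 marker per liver and a black bar at the mean. A plus or minus after the name marks an adjusted p below 0.05, and the dotted lines mark a 2-fold ratio, which the mean of no gene reached. Cenpa lies farthest to the right, between 0.65 and 1.39, and Ube2c farthest to the left among G2/M genes.

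Among the cyclins, kinases and E2F of G1, Ccne1 was above the reference and the other tested genes had no call. Ccne1, which encodes cyclin E1, the activator of CDK2 at S phase entry, had log2 ratios of 0.64, 0.76, 0.22, 0.30 and 0.61 in livers 1 to 5. Its signal was 333.1 to 614.0 in liver and 220.9 to 348.9 in the reference. All 5 livers lay above 0, with a mean of 0.51 ± 0.23 (SD, n = 5; adjusted p = 0.00767, limma). The second probe of the gene, also well above background on all arrays, gave 0.08, -0.32, -0.21, -0.40 and -0.69, with a mean of -0.31 ± 0.28 (SD, n = 5). The probes of Ccne1 therefore disagreed in direction, and with both probes averaged the ratio was 0.10 (adjusted p = 0.383, limma).

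E2f1, a transcription factor that activates S phase genes, had log2 ratios of -0.02, 0.11, 0.16, 0.37 and 0.06, with a mean of 0.14 ± 0.15 (adjusted p = 0.188, limma). Cdk4, the kinase partner of D-type cyclins, had -0.01, -0.45, -0.19, -0.41 and -0.03, with livers 2 and 4 lowest and a mean of -0.22 ± 0.20 (adjusted p = 0.106, limma). Ccnd2, which encodes cyclin D2, had -0.22, -0.11, -0.09, 0.04 and -0.26, and its 3 probes averaged -0.13, -0.11 and -0.39. It had no call, but with Agilent's processed signals it was below the reference (-0.29, adjusted p = 0.037, limma). The remaining tested genes of this role, Ccne2 and Cdk2, had means of 0.12 and -0.11 and no call.

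No gene of replication licensing had a call. These genes load the MCM helicase onto DNA before S phase, and their 7 tested members had mean log2 ratios from -0.17 to 0.09, with a median of -0.01. Mcm2, a subunit of that helicase, had 0.08, -0.004, -0.08, 0.21 and 0.25 in livers 1 to 5 (mean 0.09 ± 0.14, adjusted p = 0.321, limma). Mcm4, another subunit, had -0.02, 0.18, 0.28, 0.18 and -0.22, with liver 5 lowest. At the low end, Mcm7 had -0.22, -0.49, 0.003, -0.28 and 0.11, with livers on both sides of 0 (mean -0.17 ± 0.24, adjusted p = 0.197, limma). Cdt1, which brings the MCM helicase to replication origins, had -0.08, -0.19, 0.12, -0.13 and -0.27. The other 3 tested subunits, Mcm3, Mcm5 and Mcm6, had means of -0.11, 0.04 and -0.01.

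The 4 genes of DNA synthesis had 1 call, Rrm2, which was slightly below the reference. Rrm2 encodes the regulated subunit of ribonucleotide reductase, the enzyme that makes deoxynucleotides, and had log2 ratios of -0.18, -0.17, -0.26, -0.35 and -0.09 in livers 1 to 5. All 5 livers lay below 0, with a mean of -0.21 ± 0.099 (SD, n = 5; adjusted p = 0.0214, limma). The probe was dim, with a signal of 10.4 to 47.3 in liver and 22.8 to 44.2 in the reference, ranges that overlap, and it was well above background on 3 arrays in liver and 4 in the reference. The offset of 50 added to both channels draws the ratios of such dim spots towards 0, and with Agilent's own processed signals the ratio was -0.88 (adjusted p = 0.0163, limma). The call was lost with median centring of the arrays (-0.13, adjusted p = 0.264, limma), without liver 3 (-0.20, adjusted p = 0.0556, limma) and without liver 4 (-0.17, adjusted p = 0.0823, limma).

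Rrm1, the other subunit of ribonucleotide reductase, stayed close to the reference with -0.001, -0.03, 0.12, 0.12 and 0.01 and had the smallest SD between livers among members in the spread test, 0.07. Pcna, the sliding clamp of DNA polymerase, had -0.21, -0.43, -0.08, -0.17 and -0.08, below 0 in all 5 livers but with no call (mean -0.19 ± 0.14, adjusted p = 0.103, limma). Tyms, thymidylate synthase, had the largest SD of the G1/S genes, with -0.19, 0.24, 0.67, 0.33 and 0.15 and a mean of 0.24 ± 0.31 (adjusted p = 0.148, limma). Liver 3 was highest and liver 1 lowest for Tyms, and its second probe averaged -0.16, on the other side of 0.

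Among the cyclins and regulators of G2/M, Ccna2 was above the reference, and the other 6 genes had no call. Ccna2 encodes cyclin A2, which acts with CDK2 in S phase and with CDK1 in G2, and had log2 ratios of 0.38, 0.51, 0.54, 1.00 and 0.07 in livers 1 to 5. All 5 livers lay above 0, liver 4 reached a 2-fold ratio and liver 5 was near the reference. The mean was 0.50 ± 0.34 (SD, n = 5; adjusted p = 0.0161, limma), with the largest SD of the G2/M genes and the probe signal at 78.4 to 227 in liver and 26.8 to 112 in the reference. With Agilent's processed signals the mean was 0.80 (adjusted p = 0.0144, limma).

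The direct partners of mitotic entry had mean ratios near 0, which for the dim Cdk1 and Ccnb1 cannot show closeness to the reference. Cdk1, the mitotic kinase, had a mean of 0.03 ± 0.087 (SD, n = 5). Its cyclins Ccnb1 and Ccnb2 had means of 0.04 ± 0.18 and 0.10 ± 0.24 (SD, n = 5 each). Cdk1 and Ccnb1 had 4 and 3 arrays well above background in liver and 1 each in the reference. Their signal was 12.5 to 53.9 and 16.1 to 38.3 in liver, and 17.7 to 35.8 and 6.94 to 34.0 in the reference. The offset added to both channels draws the ratios of such dim spots towards 0. With Agilent's processed signals Cdk1, Ccnb1 and Ccnb2 had means of -0.06, 0.29 and 0.08, with no call. Plk1, the kinase that promotes mitotic entry, had -0.004, -0.01, 0.24, 0.40 and 0.004, with livers 3 and 4 alone apart from 0. Foxm1, the transcription factor of G2/M genes, had -0.45, 0.13, 0.04, -0.06 and -0.36, with livers 1 and 5 lowest and a mean of -0.14 ± 0.25 (adjusted p = 0.328, limma). Cdc25c, the phosphatase that activates CDK1, had 0.004, -0.08, 0.07, -0.14 and -0.11, and its second probe averaged 0.27.

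Of the 10 spindle and kinetochore genes 6 were tested and 3 were above the reference, beside 14.2% of all genes tested. Bub1, Bub1b, Mad2l1 and Aurkb were too dim to test. The tested genes had mean log2 ratios from 0.00 to 0.99 and a median of 0.28. Cenpa, the histone H3 variant that marks centromeres, had log2 ratios of 0.69, 1.13, 1.11, 1.39 and 0.65 in livers 1 to 5. Livers 2, 3 and 4 lay above a 2-fold ratio and livers 1 and 5 below it. The mean of 0.99 ± 0.31 (SD, n = 5; adjusted p = 0.00128, limma) is a 1.99-fold ratio, just under the 2-fold needed for a call. The mean passed 2-fold in the authors' deposited table and with Agilent's processed signals (1.15 each), with no background correction (1.01), without liver 1 (1.07) and without liver 5 (1.08). Its signal was 259.1 to 758.6 in liver and 132.1 to 286.5 in the reference, and it had 1 probe.

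Birc5, which encodes survivin, a component of the chromosomal passenger complex and an inhibitor of apoptosis, had log2 ratios of 0.55, 0.75, 0.86 and 0.67 in livers 1, 2, 4 and 5. The spot of liver 3 was marked as an outlier by the scanner software and left out. The 4 remaining livers all lay above 0, with a mean of 0.71 ± 0.13 (SD, n = 4; adjusted p = 0.00219, limma), and with the outlier spot kept the mean was 0.61 (adjusted p = 0.00334, limma). Aurka, the kinase of the spindle poles, had 0.28, 0.78, 0.31, 0.45 and 0.35, with liver 2 highest. Its mean was 0.43 ± 0.20 (SD, n = 5; adjusted p = 0.00746, limma), with a signal of 46.0 to 187 in liver and 34.8 to 96.7 in the reference. The Aurka call was lost with Agilent's processed signals (0.45, adjusted p = 0.0552, limma) and in the authors' deposited table (0.45, adjusted p = 0.0546, limma).

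The other spindle genes had no call. Kif11, the kinesin that pushes the spindle poles apart, had -0.11, 0.09, 0.27, -0.09 and -0.16, with a mean of 0.00 ± 0.17, and its second probe averaged 0.01. Tpx2, a protein that activates Aurora A on spindle microtubules, had 0.28, -0.15, 0.13, 0.07 and -0.13, with a mean of 0.04 ± 0.18. Kif20a, a kinesin of cytokinesis, had a mean of 0.13 ± 0.30 (SD, n = 5).

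The chromosome protein Top2a and the ubiquitin enzyme Ube2c were below the reference, so calls in both directions occurred within G2/M. Ube2c, the ubiquitin-conjugating enzyme that works with the anaphase-promoting complex, had log2 ratios of -0.27, -0.56, -0.31, -0.28 and -0.33 in livers 1 to 5. All 5 livers lay below 0 and liver 2 was the lowest, with a mean of -0.35 ± 0.12 (SD, n = 5; adjusted p = 0.00922, limma). Its signal was 72.9 to 154 in liver and 96.7 to 225 in the reference.

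Top2a, the topoisomerase that untangles chromosomes before they separate, had log2 ratios of -0.11, -0.36, -0.13, -0.17 and -0.19, with a mean of -0.19 ± 0.097 (SD, n = 5; adjusted p = 0.0444, limma). With Agilent's processed signals the mean was -0.45 (adjusted p = 0.0329, limma). The Top2a call was lost with median centring and on leaving out any liver (adjusted p between 0.0629 and 0.109, limma), and its second, dim probe averaged 0.10. Cdc20, an activator of the anaphase-promoting complex, had -0.47, 0.29, 0.34, -0.10 and 0.11, with livers on both sides of 0 and a mean of 0.03 ± 0.33 (adjusted p = 0.848, limma).

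The 2 inhibitors had no call. Cdkn2c, the INK4 inhibitor p18 of CDK4 and CDK6, had 0.01, 0.13, 0.26, 0.14 and 0.32, above 0 in all 5 livers (mean 0.17 ± 0.12, adjusted p = 0.129, limma). Cdkn1b, the inhibitor p27 of cyclin E and cyclin A kinases, had -0.13, 0.14, 0.04, 0.02 and 0.09, with a mean of 0.03 ± 0.099 (adjusted p = 0.775, limma).

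By phase, the medians of G1/S and G2/M genes lay close to each other and to 0, while the mean of G2/M genes was higher. The 17 tested G1/S genes had a median log2 ratio of -0.01, with 8 positive and 9 negative means, 1 above and 1 below the reference. The 16 tested G2/M genes had a median of 0.04, with 12 positive and 4 negative means, 4 above and 2 below. Over all genes tested, 14.2% were above and 12.8% below. The mean over the tested genes was 0.15 for G2/M and 0.0006 for G1/S. Per liver, the mean over the 17 G1/S genes was -0.02, -0.07, 0.08, 0.02 and -0.01 in livers 1 to 5. The mean over the 15 G2/M genes with a value in all livers, which leaves out Birc5, was 0.03, 0.20, 0.16, 0.21 and -0.04. The difference, G1/S minus G2/M, was -0.05, -0.28, -0.08, -0.19 and 0.03, which is negative in 4 of 5 livers and averaged -0.11 ± 0.12 (SD, n = 5). It was -0.19 with Agilent's processed signals and -0.07 with no filter on dim probes. With outlier spots kept, which brings Birc5 into the G2/M mean, it was -0.14. It was -0.22 in the authors' deposited table, where outlier spots also have values, so the genes averaged there differ. No p is given because the genes were listed with earlier results known.

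All 5 livers lay on 1 side of 0 for 12 of the 34 cell cycle genes with a value in each liver, 5 on the positive side and 7 on the negative side. That share, 35.3%, compares with 37.7% of all 13703 genes with 5 values, and was 35.3% among G1/S and 33.3% among G2/M genes.

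Cenpa and the G2/M mean were higher in livers 2, 3 and 4. Cenpa was at 1.11 to 1.39 in these livers and at 0.65 and 0.69 in livers 5 and 1, and the G2/M mean was 0.16 to 0.21 in these livers and at -0.04 and 0.03 in livers 5 and 1. The median over the 129 genes called higher, of all kinds, was 0.96, 1.57, 1.31, 1.62 and 0.93 in livers 1 to 5, the same order of livers as for Cenpa. The mean over the 2 tested fetal liver and embryo genes, 0.20, 0.54, 0.48, 0.61 and 0.17, had that order as well. Means of other G2/M genes and of lymphocyte, thymus, testis and brain markers were also higher in livers 2, 3 and 4. Means of most remaining lists were not. The genes called lower, all genes tested and the cell cycle genes above the reference did not follow that order. The median over the 62 genes called lower was -1.57, -1.54, -0.95, -1.28 and -1.25, and that over all genes tested stayed between -0.02 and -0.0047. The median over the 5 cell cycle genes above the reference was 0.55, 0.76, 0.43, 0.86 and 0.61. Liver 3 was lowest, but Birc5 had no value there. The part of the shift of the called-higher genes in the values of Cenpa and of the G2/M genes was not tested.

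**Figure D3:**
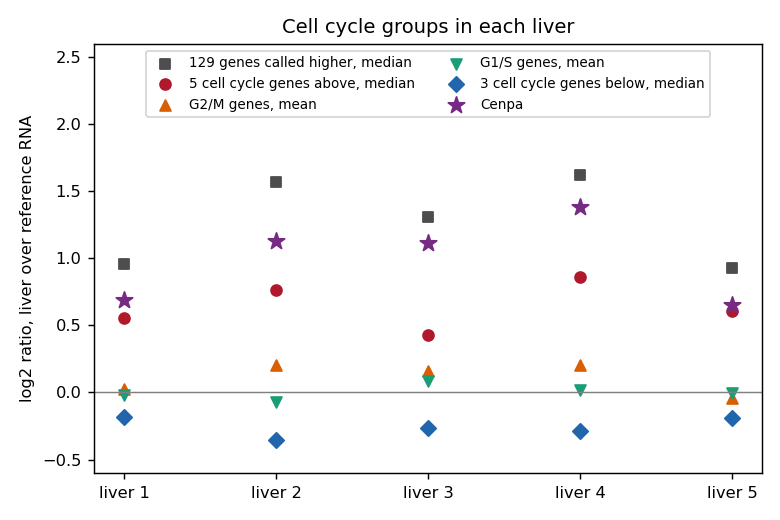
Log2 ratio of liver over reference RNA (vertical axis) in each of the 5 livers (horizontal axis) for groups of genes and for Cenpa. Cenpa and the median of all 129 called-higher genes are highest in liver 4 and lower in livers 1 and 5, while the G1/S mean stays between -0.07 and 0.08.

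No cell cycle gene passed the test of spread between livers. Across the 12450 genes that cleared background in liver and in the reference on every array, the variance between livers was set against the variance expected at that brightness (F test on limma's prior variance, upper tail). The expected variance was fitted to these same genes, so the test sets genes against one another. It cannot show whether the livers differ beyond technical noise. The test passed 0% of genes after Benjamini-Hochberg adjustment, the smallest adjusted p being 0.326, and 5.58% of genes (695) at an unadjusted p below 0.05. The 27 cell cycle genes in it included 0 past either threshold. Their median SD between livers was 0.17, beside 0.19 over all genes in the test, and ranged from 0.07 for Rrm1 to 0.34 for Ccna2.

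Probes of one gene often disagreed, which bears on calls below 2-fold and on 2-fold calls in the higher direction. Among all genes above the reference, 569 had another tested probe, and in 300 of these the other probe averaged on the opposite side of 0. Among genes below the reference, 622 had another tested probe and 133 were opposite. Of the genes called higher at 2-fold, 48 had another tested probe and 29 were opposite. Of those called lower at 2-fold, 18 had one and 0 were opposite. Of the 5 cell cycle genes above, only Ccne1 had another tested probe, which was opposite, and of the 3 below none had one. Cenpa, Birc5, Ccna2, Aurka, Ube2c and Rrm2 thus rest on 1 probe each, and with liver always in Cy5 a dye effect of a probe and a difference between the RNAs cannot be told apart.

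**Figure D4:**
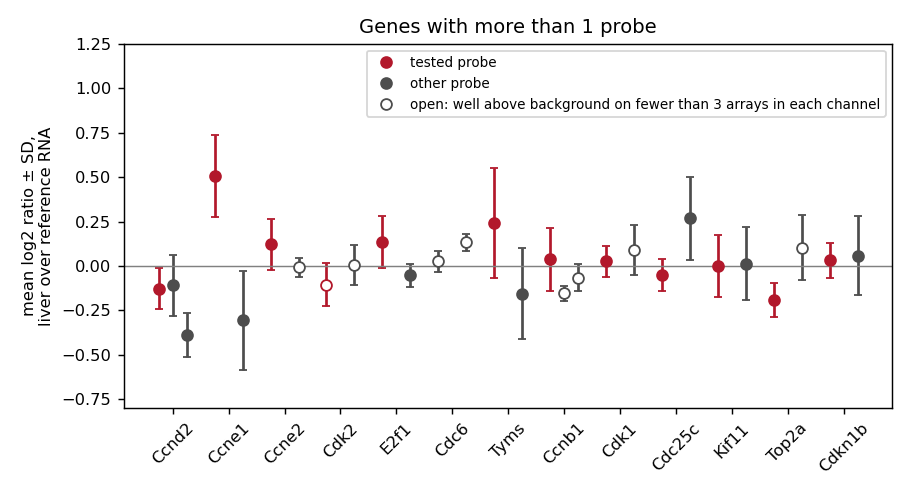
Mean log2 ratio of liver over reference RNA ± SD over livers (vertical axis) for every probe of the 13 cell cycle genes with more than 1 probe (horizontal axis), with the probe used in the test in red and the others in grey. Open circles are probes well above background on fewer than 3 arrays in each channel. The probes of Ccne1, at 0.51 and -0.31, and of Tyms, at 0.24 and -0.16, lie on opposite sides of 0.

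Promoters of 5 of the genes with a call are printed, Cenpa and Birc5 above the reference and the 3 below it, together with Mcm3 as a G1/S gene with an E2F match. Those of Ccne1 and Aurka were searched but are not printed. This set was chosen after the values were seen. The sequences are from RefSeq's GRCm38.p6 table, 5′ to 3′ on the strand of the gene, from 250 bases before the annotated start to 30 bases after it. Capitals mark matches to the cell cycle genes homology region (CHR, spelled TTTGAA and in another form TTCGAA), to the CCAAT box (CCAAT) or to an E2F element, searched on both strands. The E2F element was spelled TTCCCGC, in another form TTGGCGC and in a last form TTCGCGC.
Cenpa, chr5:30666636-30666915, plus strand: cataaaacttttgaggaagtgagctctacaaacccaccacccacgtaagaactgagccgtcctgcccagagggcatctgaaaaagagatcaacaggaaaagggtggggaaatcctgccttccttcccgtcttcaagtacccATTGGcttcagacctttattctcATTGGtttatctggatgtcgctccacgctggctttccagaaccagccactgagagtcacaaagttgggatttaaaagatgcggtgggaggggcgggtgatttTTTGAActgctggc
Birc5, chr11:117848987-117849266, plus strand: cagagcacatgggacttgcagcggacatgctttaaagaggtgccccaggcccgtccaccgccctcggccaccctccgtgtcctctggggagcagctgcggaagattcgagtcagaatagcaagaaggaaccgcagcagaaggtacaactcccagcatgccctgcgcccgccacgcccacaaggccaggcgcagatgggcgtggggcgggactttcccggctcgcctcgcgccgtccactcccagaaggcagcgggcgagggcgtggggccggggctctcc
Ube2c, chr2:164769679-164769958, plus strand: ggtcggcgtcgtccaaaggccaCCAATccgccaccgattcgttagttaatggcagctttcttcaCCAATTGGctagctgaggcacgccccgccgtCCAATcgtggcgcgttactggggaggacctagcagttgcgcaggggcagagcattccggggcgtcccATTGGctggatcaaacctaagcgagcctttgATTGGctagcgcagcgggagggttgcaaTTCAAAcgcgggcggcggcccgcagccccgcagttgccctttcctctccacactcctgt
Top2a, chr11:99024160-99024439, minus strand: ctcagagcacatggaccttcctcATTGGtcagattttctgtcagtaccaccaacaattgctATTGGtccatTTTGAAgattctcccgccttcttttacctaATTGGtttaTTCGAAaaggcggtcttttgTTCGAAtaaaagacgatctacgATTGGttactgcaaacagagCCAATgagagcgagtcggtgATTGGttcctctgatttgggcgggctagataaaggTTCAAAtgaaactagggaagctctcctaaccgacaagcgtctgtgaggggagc
Rrm2, chr12:24708004-24708283, plus strand: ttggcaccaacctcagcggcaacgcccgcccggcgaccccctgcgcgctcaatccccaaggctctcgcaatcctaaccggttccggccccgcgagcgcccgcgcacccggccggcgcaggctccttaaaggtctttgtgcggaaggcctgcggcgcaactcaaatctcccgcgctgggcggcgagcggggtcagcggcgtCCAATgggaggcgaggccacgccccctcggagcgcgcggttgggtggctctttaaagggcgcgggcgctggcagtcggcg
Mcm3, chr1:20820283-20820562, minus strand: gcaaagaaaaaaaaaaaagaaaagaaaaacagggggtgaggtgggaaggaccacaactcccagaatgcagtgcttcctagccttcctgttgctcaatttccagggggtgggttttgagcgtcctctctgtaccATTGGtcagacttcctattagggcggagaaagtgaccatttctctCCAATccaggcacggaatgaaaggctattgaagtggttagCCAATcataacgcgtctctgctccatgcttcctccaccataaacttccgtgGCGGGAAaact

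The table held promoters of 32 of the 42 genes, 34 promoters in all, and windows of 300 bases, from 250 before to 50 after the start, were searched. In Cenpa the CHR match begins 17 bases after the start and 2 CCAAT matches lie 109 and 86 bases before it. In Ube2c the CHR match lies 29 bases before the start with 6 CCAAT matches farther upstream, of which 2 overlap on opposite strands, and Top2a had 4 CHR and 6 CCAAT matches. Neither Birc5 nor Rrm2 had a CHR match, Birc5 had no match to any of the 3 motifs, and Rrm2 had 1 CCAAT match 50 bases before the start. Mcm3 had E2F matches 20, 40 and 43 bases after the start, of which the last 2 overlap each other and lie outside the printed stretch.

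CHR matches were more frequent in G2/M than in G1/S promoters and E2F matches the reverse, without a full separation of the phases. CCAAT matches were more frequent in both phases than among all promoters. A CHR match was present in 2 of 16 G1/S promoters (12.5%) and in 12 of 15 G2/M promoters (80%), beside 19.2% of all 32851 promoters in the table. An E2F match was present in 9 of 16 G1/S promoters (56.2%) and in 3 of 15 G2/M promoters (20%), beside 8.07% of all. CCAAT was present in 10 of 16 (62.5%) and 13 of 15 (86.7%), beside 37.4%. Among genes with a call, a CHR match was present in 2 of 4 promoters of genes above the reference (Cenpa and Aurka). It was present in 2 of 3 of genes below it (Ube2c and Top2a). These genes are too few to compare the direction of the ratio with the motif, and a relation was not tested. A match is a description of letters in a window and not a binding site.

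**Figure D5:**
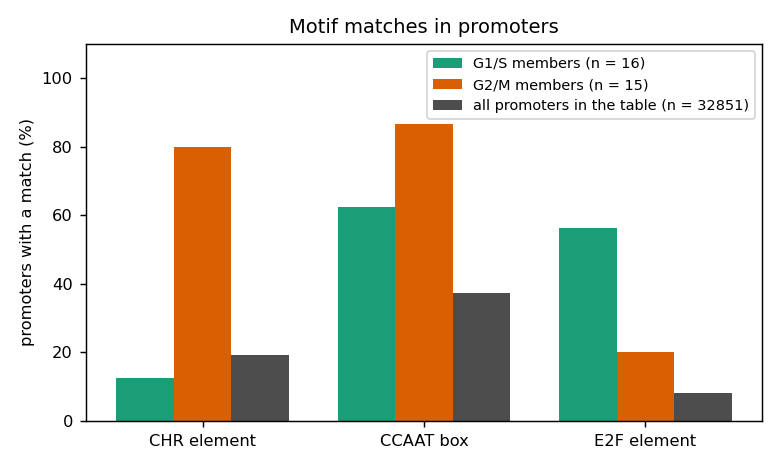
Share of promoters with at least 1 match (vertical axis, percent) for each motif (horizontal axis), in G1/S genes, G2/M genes and all promoters of the RefSeq table. CHR matches reach 80% in G2/M genes and 12.5% in G1/S genes, and E2F matches 20% and 56.2%.

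Other genes of the same phases were listed beside the 42, with 1 call at 2-fold in each phase. For comparison with the counts below, 1.28% of all genes tested were called at 2-fold. With no minimum ratio, 14.2% of all genes were above the reference and 12.8% below. Of 32 other G1/S and S phase genes 24 were tested, 3 above and 2 below the reference, with a median log2 ratio of -0.03. Mcm10, a factor that activates the replicative helicase, was called lower, with -1.23, -1.85, -0.68, -0.77 and -1.02 in livers 1 to 5 (mean -1.11 ± 0.47, adjusted p = 0.00312, limma), and all 5 livers lay below 0. Liver 2 was the lowest, and without it the mean of -0.92 was no longer 2-fold. The highest of the list was Fen1, the flap endonuclease of lagging-strand synthesis, with a mean of 0.44 ± 0.43 and no call (adjusted p = 0.0564, limma), although it passed an adjusted p of 0.05 without liver 1 (0.55, adjusted p = 0.0318, limma) or liver 5 (0.55, adjusted p = 0.0394, limma).

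Of 41 other G2/M genes 37 were tested, 8 above and 2 below the reference, with a median of 0.15. Ckap2, a microtubule-associated protein of the spindle, was called higher, with 0.91, 1.22, 1.42, 1.05 and 0.79 (mean 1.08 ± 0.25, adjusted p = 5.7e-04, limma). Ckap2 had 1 tested probe and its ratio was above 0 in all 5 livers. Its mean was just under 2-fold with median centring (0.96) and without liver 3 (0.99). The lowest was Smc2, a subunit of condensin, with a mean of -0.56 ± 0.61 and no call (adjusted p = 0.0878, limma). This value rests on the brightest of 3 tested probes, and their average was -0.07 (adjusted p = 0.717, limma). Smc2 passed an adjusted p of 0.05 with Agilent's processed signals (-0.65, adjusted p = 0.0465, limma) and without liver 4 (-0.75, adjusted p = 0.0336, limma).

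Among 21 cell cycle brakes, pocket proteins and p53 targets, 19 were tested, 3 above and 2 below the reference, with a median of -0.06. Cdkn2a, the locus of p16 and p19 ARF, was called higher, with 0.73, 1.45, 1.16, 1.44 and 0.86 (mean 1.13 ± 0.33, adjusted p = 7.9e-04, limma). It was dim in the reference, well above background there on 3 arrays against 5 in liver, and its ratio was 2.25 with Agilent's processed signals. Cdkn1a, the p53 target p21 that inhibits cyclin-dependent kinases, had -0.47, 0.57, -2.41, -2.69 and 0.85, low in livers 3 and 4 and above 0 in livers 2 and 5. Its mean was -0.83 ± 1.65 (adjusted p = 0.358, limma), and its spread between livers had an unadjusted p of 2.3e-04 and an adjusted p of 0.326 in the F test on limma's prior variance.

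The growth signals and priming genes had 12 tested of 16, 1 above the reference (Met, the receptor of hepatocyte growth factor, mean 0.32 ± 0.14, adjusted p = 0.0202, limma) and 0 below. Met had 2 other tested probes, the lower of which averaged -0.12, on the other side of 0. The highest, Egfr, the receptor of epidermal growth factor, averaged 0.39 ± 0.67 with no call, and the lowest, Tgfb1, a growth-inhibiting cytokine, averaged -0.21 ± 0.15 with no call, although it passed an adjusted p of 0.05 with Agilent's processed signals (-0.30, adjusted p = 0.0448, limma). Cyp2b10, the cytochrome P450 in the study's title, averaged 0.94 ± 0.33 (SD, n = 4; adjusted p = 0.00294, limma).

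Markers of other cell types and tissues were measured beside these genes. Of 11 lymphocyte markers tested, 2 were above the reference (Cd79a at 0.57 and Cd3e at 0.45) and 0 below. Cd79b at -0.28, Cd3d at -0.25 and Cd3g at 0.002 had no call. Over the list, 5 means were positive and 6 negative, with a median of -0.06. The summed signal was 4186 to 8369 in liver and 4410 to 6927 in the reference. Of 8 Kupffer cell markers 5 were below the reference, and of 7 endothelial markers 4 were below. Of 6 bile duct markers 2 were below, and of 7 stellate cell and matrix markers 1. Of 7 neutrophil and marrow markers 1 was above. Among markers of tissues outside liver, 2 of 5 brain, 1 of 6 testis and 1 of 4 thymus markers tested were above, with means up to 0.59. In each of these lists 1 was below. Over all genes tested, 14.2% were above and 12.8% below. The 5 tested red blood cell markers had a median of -0.71, with a summed signal of 2704 to 9736 in liver and 9032 to 13236 in the reference. Of 4 fetal liver and embryo genes with a probe, Afp and Igf2 did not pass the filter for testing. The 2 tested were Gpc3, at -0.06 with no call, and Lin28b, at 0.86 (adjusted p = 0.00339, limma), whose other tested probe averaged 0.01. Among the marker lists, 2 genes had a 2-fold call, the hepatocyte gene Alb higher (mean 1.15, adjusted p = 0.00176, limma) and the matrix gene Col1a1 lower (mean -1.002, adjusted p = 0.0114, limma). Col1a1 ranged from -0.34 in liver 1 to -1.86 in liver 2. It had 2 other tested probes, the lower of which averaged -0.39, short of 2-fold. The part of these cell types in the ratios of the cell cycle genes was not tested.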

How the data were processed

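The 5 arrays were 2-colour Agilent arrays, each with liver in Cy5 and the reference RNA in Cy3. The spot intensity values were deposited by the authors as medians over the pixels of a spot and of its surroundings, without normalization, and per the file headers the software was Agilent Feature Extraction 11.5.1.1. Processed intensities with a log10 ratio stand beside them, background-subtracted and dye-normalized per the file headers. A further deposited table holds log2 ratios. Compared with the processed intensities array by array, 99.7% of its values matched to 0.001, so it runs liver over reference on a log2 scale with no further centring.

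Median intensities were background-corrected with normexp (offset 50) and normalized by loess within each array, with control and outlier spots at weight 0 and left out afterwards (limma 3.58.1, R 4.3.3). Between 2.32% and 4.05% of spots were outliers. Of 41174 probes, 24375 were named through RefSeq identifiers (GRCm38.p6). Gene means were tested against 0 with limma (intercept only, intensity trend, robust prior, two-sided), which leaves out the reference's own spread. Over 179 probes spotted 10 times, the median SD was 0.09 between spots and 0.17 between livers. The 5 arrays lay on 5 slides and were scanned on 1 day. All cell cycle genes are accounted for. Values of each liver are given for the 2 highest and 2 lowest of each role, genes with a call, and the largest SD in each phase. Of the other pathway lists the highest, the lowest and called genes are named, and Cdkn1a and Cyp2b10 always. Marker lists are given by counts or summed signal, with genes called at 2-fold. Gpc3, Lin28b, Cd79a, Cd79b, Cd3d, Cd3e, Cd3g and Met were named after their values were seen. The genes and lists were chosen with earlier results of these data known. Scripts were tested on simulated data. Alternatives changed the normalization, the signal, the filter, the treatment of probes and outlier spots, or left out a liver.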

Additional observations from a re-analysis of the deposited data

Results flagged for a closer look

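Of 46 values tested for an outlying liver, 2 stood apart by Dixon's test, and chance sets apart about 1 in 20. Cdk2 had its lowest log2 ratio, -0.31, in liver 2, against -0.10 to -0.02 in the other livers, and its probe was dim in both channels. Ube2c had its lowest log2 ratio, -0.56, in liver 2, against -0.33 to -0.27 in the other livers.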

How the results depend on the processing

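No gene with a call changed direction, while the G1/S median, close to 0, fell on either side of it. Of the values of single genes under the alternatives 569 kept their side of the threshold, 12 lost a call and 9 gained one. Agilent's processed signals called 323 genes higher and 156 lower, and 1 cell cycle gene, Cenpa. The authors' deposited table gave 324, 153 and 1. Averaging the probes of a gene called 85 genes higher, and no background correction called 1 cell cycle gene, Cenpa. Testing against a 2-fold ratio itself (limma's treat) left 7 genes higher and 2 lower. Median centring left 1 cell cycle gene below the reference, Ube2c, and 225 genes past the spread test. Leaving out each liver in turn gave 98 to 151 genes higher, 53 to 71 lower, 0 to 1 cell cycle gene called (Cenpa without liver 1 or 5), 5 above each time and 1 to 2 below the reference, a G1/S median of -0.05 to 0.03, a G2/M median of 0.01 to 0.09, a difference of -0.15 to -0.07, and each time 0 genes past the spread test. The cause of these changes was not tested. Birc5, Ccna2 and Ube2c kept an adjusted p below 0.05 (limma) in each alternative in which they were tested, and Cenpa ranged from 0.90 to 1.15. Over all alternatives the difference of the phases ranged from -0.22 to -0.07. The slide as a block was not run, since each array had its own slide. No paired analysis was possible because all samples form 1 group. The number of arrays and, for dim probes such as that of Rrm2, the signal over background limit the precision.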
